A study of Homo sapiens with 5 samples.

Results

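The 10 genes described here encode ligands and receptors of the VEGF and angiopoietin families: VEGFA, VEGFB, VEGFC, PGF, ANGPT1, ANGPT2, ANGPTL4, NRP1, NRP2 and FLT1. They were taken by name from the 58812 genes of a read count table. The table covers 5 libraries of C4-2B, a castration-resistant metastatic prostate cancer cell line derived from LNCaP, grown in C4-2B media, with no other treatment named. Of these, 2 came from the HOXB13 K13A mutant clone C4K13A, 1 from the HOXB13 K13A mutant clone C5K13A, and 2 from the parental line. HOXB13 encodes a homeodomain protein that binds DNA in prostate epithelium, and the series concerns transcripts tied to acetylation of its lysine 13, which K13A replaces with alanine. Each mutant group is a single clone, so an effect of the mutation cannot be told apart from other differences that a clone carries.

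VEGF ligands are secreted dimers that bind receptor tyrosine kinases, of which FLT1, KDR and FLT4 are the family, and the neuropilins NRP1 and NRP2 act as co-receptors. Angiopoietins bind the receptor kinase TEK (TIE2) and control vessel stability. In carcinomas the tumour cell is typically a source of ligand and the endothelial cell carries most of the receptors, and VEGFA is a well-known target of hypoxia-inducible factors and of the stress factor ATF4.

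Totals ran from 43190276 counts in the C5K13A library to 57282373 in a parental one, and HOXB13 itself had 344 to 352 CPM in the clone libraries, against 338 and 448 CPM in the parental ones. CPM here is edgeR's count scaled to library size with TMM factors. A substitution of 1 residue is not visible in counts per gene, so the genotype is not checked by them. The 8 luminal prostate markers summed to between 4807 and 5787 CPM in the clone libraries, against 4592 and 6524 CPM in the parental ones. Endothelial markers summed to 3.67 to 5.35 CPM in the clone libraries, against 6.45 and 6.52 CPM in the parental ones, most of it VWF. CLDN5 had 26 to 56 counts in a library and EMCN 2 to 12. PECAM1, ROBO4, PLVAP and TIE1 had at most 9, and CDH5, TEK and KDR at most 3. Fibroblast and pericyte markers summed to 15.3 to 16.3 CPM in the clone libraries, against 11.8 and 15.0 CPM in the parental ones. Leukocyte markers summed to at most 0.374 CPM. The libraries differed in residual mitochondrial ribosomal RNA, at 65.4 and 353 CPM in C4K13A and 658 in C5K13A, against 29 and 1723 CPM in parental. A further fit had a covariate for libraries above and below 200 CPM of it, a split that also separates replicate 1 from replicate 2 in C4K13A and in parental. There VEGFA in C4K13A over parental had a log2 fold change of -2.17 (edgeR adjusted p = 1.06e-04). That fit estimates a further term from the same 5 libraries. It called more of all genes than the fit without the covariate, as given at the end.

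Of the 10 genes, 8 had counts. VEGFC (chromosome 4, 176683538 to 176792727, minus strand, GRCh38) encodes the main lymphatic VEGF ligand, and ANGPT1 (chromosome 8, 107249482 to 107498055, minus strand) encodes the activating ligand of TEK. Both had 0 counts in each of the 5 libraries. A count of 0 allows up to 3 counts, which is 0.0707 CPM in the C5K13A library and 0.0506 CPM in the deepest parental one. The plot of levels by library shows the others.

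**Figure D1:**
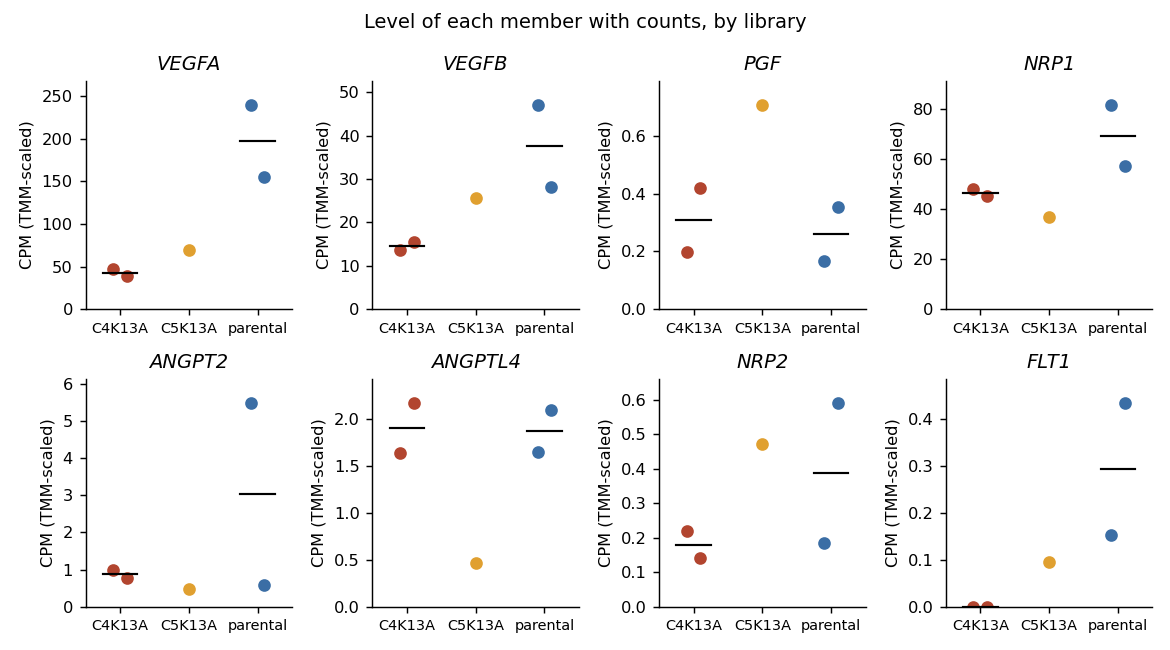
Level of the 8 members with counts in each library, in TMM-scaled CPM on a linear axis from 0, for C4K13A (2 libraries), C5K13A (1 library) and parental (2 libraries). Points are libraries and black lines are means of 2. VEGFA, VEGFB and NRP1 lay lower in each clone library than in either parental one, as did 14.9% of all genes tested over both clones. FLT1 did too, but at the edge of detection, with at most 4 counts in a clone library and 9 and 22 in parental. The high parental point of ANGPT2 at 5.48 CPM stands alone.

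VEGFA fell in clone C4K13A. VEGFA (ENSG00000112715, chromosome 6, 43770184 to 43786487, plus strand, GRCh38) encodes the principal angiogenic growth factor. In CPM, its level was 47.2 and 38.8 in the C4K13A libraries and 69.4 in C5K13A, against 239 and 155 CPM in the parental libraries. These levels rest on 2368, 1661 and 2946 reads in the clone libraries, against 14202 and 7893 in parental. All clone libraries were lower than both parental ones, and C5K13A stood between C4K13A and parental. C4K13A averaged 43.0 ± 5.97 CPM and parental 197 ± 59.5 CPM (SD, n = 2 each), so the C4K13A mean was 21.8% of the parental one. In edgeR's quasi-likelihood test with Benjamini-Hochberg adjustment, the log2 fold change of C4K13A over parental was -2.20 ± 0.25 (standard error, adjusted p = 0.0124). VEGFA was the 1 member called lower in that comparison, of 8 tested. Called means an adjusted p under 0.05, which 0.602% of all 22743 genes tested reached downward and 0.699% in either direction. In C5K13A the level was 35.2% of the parental mean, with a log2 fold change of -1.50 ± 0.32 over parental that missed the threshold in the same test (adjusted p = 0.284). Against a single parental library it was -1.16 without parental replicate 1 and -1.78 without parental replicate 2, where 1 library stands against 1 and no call is read.

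Over both clones VEGFA missed the threshold. The 3 K13A libraries averaged 51.8 ± 15.8 CPM and the 2 parental ones 197 ± 59.5 CPM (SD), for a log2 fold change of -1.93 ± 0.28 (edgeR adjusted p = 0.0522). DESeq2 called it (adjusted p = 8.26e-08), as did edgeR in the fit of 3 groups (0.0218). It was not called by edgeR with the C4K13A libraries summed so that each clone counted once (0.181). Without parental replicate 1, which leaves 1 parental library, the log2 fold change was -1.58. Leaving out C5K13A leaves C4K13A against parental alone, so the edgeR call there (-2.20, adjusted p = 0.0191) is not one over both clones. The difference in VEGFA between the clones missed the threshold (log2 fold change of C5K13A over C4K13A 0.70 ± 0.29, edgeR adjusted p = 0.765). The call in C4K13A ended with a filter at 5 CPM (edgeR adjusted p = 0.0513) and held without C5K13A. With each library left out in turn, the log2 fold change of C4K13A over parental ran from -2.48 to -1.85. Leaving out a C4K13A or parental library leaves 1 in that group, so no call is read there. RNA from a culture does not tell fewer cells with the transcript from less transcript per cell.

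VEGFB was the second most abundant ligand by reads. VEGFB (ENSG00000173511, chromosome 11, 64234538 to 64238793, plus strand) encodes a ligand of FLT1 and NRP1 linked to fatty acid handling and cell survival. Its CPM levels were 13.7 and 15.4 in C4K13A and 25.7 in C5K13A, against 46.9 and 28.1 CPM in parental. Every clone library was lower than both parental ones, but C5K13A lay just under the lower parental library. The log2 fold change was -1.37 ± 0.26 for C4K13A over parental (edgeR adjusted p = 0.0704), -0.54 ± 0.32 for C5K13A over parental (0.826) and -1.04 ± 0.31 over both clones (0.287). None passed. For C4K13A, DESeq2 called it (adjusted p = 2.43e-04). The edgeR value was -1.69 without parental replicate 2 and -0.95 without parental replicate 1, where 1 parental library is left and no call is read. Without parental replicate 1 the value was -0.13 for C5K13A and -0.62 over both clones (edgeR adjusted p = 0.944 over both).

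The 250 bases before the RefSeq start of VEGFB and of ANGPTL4 are printed because these 2 members differ in which clone was the lower one: C4K13A for VEGFB, and C5K13A for ANGPTL4, whose values follow further on. Neither difference between the clones was called. For VEGFB the log2 fold change of C5K13A over C4K13A was 0.83 ± 0.31 (edgeR adjusted p = 0.728). They come from RefSeq (GRCh38.p14), where 6 of the 10 members had an entry. VEGFB is chr11:64234334-64234583 on the plus strand and ANGPTL4 is chr19:8363905-8364154 on the plus strand, both 5′ to 3′. RefSeq places the start 46 bases inside the GENCODE gene for VEGFB and 866 bases inside it for ANGPTL4, so the VEGFB window lies partly and the ANGPTL4 window wholly within the gene coordinates given here. Capitals mark matches, on either strand, to the hypoxia-inducible factor core (ACGTG or GCGTG) and to the GC box of SP factors (GGGCGG).
VEGFB: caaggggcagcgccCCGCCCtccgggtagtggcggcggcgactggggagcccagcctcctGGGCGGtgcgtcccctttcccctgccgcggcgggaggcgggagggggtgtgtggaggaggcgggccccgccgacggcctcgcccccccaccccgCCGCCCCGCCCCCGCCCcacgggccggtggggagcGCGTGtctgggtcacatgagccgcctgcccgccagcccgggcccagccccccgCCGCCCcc
ANGPTL4: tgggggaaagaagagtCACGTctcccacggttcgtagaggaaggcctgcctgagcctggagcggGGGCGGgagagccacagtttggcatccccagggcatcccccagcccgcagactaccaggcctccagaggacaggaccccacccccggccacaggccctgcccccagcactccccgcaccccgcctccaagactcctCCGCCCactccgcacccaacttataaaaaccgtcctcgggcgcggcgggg
The VEGFB window held GCGTG at bases -61 to -57 from the RefSeq start and 6 GC boxes, with a pair that overlaps at base -91. The ANGPTL4 window held ACGTG, on the opposite strand, at -234 to -230 from its RefSeq start, and 2 GC boxes. Of 35116 promoter windows of this length, 18.5% held ACGTG, 32.2% GCGTG and 42.6% GGGCGG. The letters CAATAAA, a HOXB13 core, and TGATGNAA, an ATF4 composite element, were in neither window, and in 3.66% and 3.14% of all windows. The matches are letters in a window and were not measured as binding.

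PGF, the third VEGF ligand with counts among the members, was near the limit of detection, as was VEGFD outside them. VEGFD had 16 and 0 counts in C4K13A and 0 in C5K13A, against 9 and 10 in parental. PGF (ENSG00000119630, chromosome 14, 74941834 to 74955784, minus strand) encodes placental growth factor, a ligand of FLT1. It had 10 and 18 counts in C4K13A and 30 in C5K13A, against 10 and 18 in parental. C4K13A and parental libraries overlapped and C5K13A stood above both, with a log2 fold change of 1.44 ± 0.86 over parental that missed the threshold (edgeR adjusted p = 0.826).

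Per unit of length VEGFA and VEGFB carried nearly all VEGF ligand reads, and the VEGFA share was lower in each clone library than in either parental one. Divided by the length of each gene's longest coding transcript, VEGFA made up 57.1% and 49.1% of the summed VEGFA, VEGFB, VEGFC and PGF level in C4K13A and 50.9% in C5K13A, against 66.5% and 68.2% in parental. The sum itself was 23.4 and 22.3 CPM per kilobase in C4K13A and 38.6 in C5K13A, against 101.8 and 64.4 in parental. VEGFB made up 42.5% and 49.9% in C4K13A and 48.2% in C5K13A, against 33.4% and 31.6% in parental, so it led VEGFA narrowly in C4K13A replicate 2. Which ligand led depended on the length used and, with this length, on the library. With all merged exons, which reach 14431 bases for VEGFA through its many annotated transcripts, VEGFA's share was 26.9% and 21.2% in C4K13A and 22.3% in C5K13A, against 35.3% and 37.1% in parental. The VEGFA share was lower in each clone library than in either parental one under both lengths.

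Ratios of reads within a library do not depend on how libraries are scaled. There were 3.44 and 2.52 VEGFA reads per VEGFB read in C4K13A and 2.71 in C5K13A, against 5.10 and 5.53 in parental. VEGFA reads per NRP1 read were 0.987 and 0.862 in C4K13A and 1.88 in C5K13A, against 2.94 and 2.72 in parental. Both ratios were lower in every clone library, beyond the exact 95% counting intervals. VEGFB reads per NRP1 read were 0.287 and 0.341 in C4K13A and 0.695 in C5K13A, against 0.577 and 0.491 in parental, so the clones lay on opposite sides of parental. An exact two-sided permutation test of the log2 ratios over libraries gave p = 0.2 for both VEGFA ratios, the smallest value that 3 libraries against 2 can give, and p = 0.6 for VEGFB per NRP1 read.

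**Figure D2:**
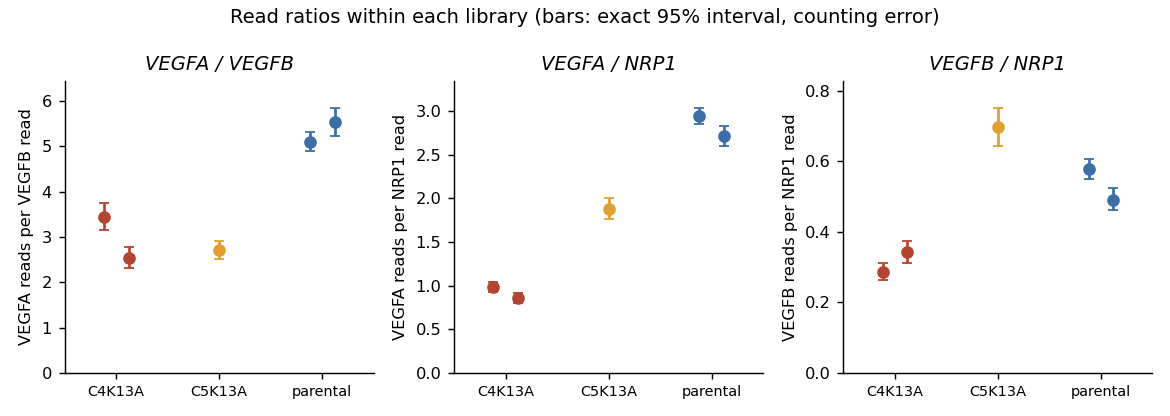
Reads of 1 member per read of another within each library (linear axis from 0), for C4K13A (2 libraries), C5K13A (1) and parental (2). Points are libraries and bars are exact 95% intervals that cover counting error only. VEGFA per VEGFB read was 2.52 to 3.44 in the clones and 5.10 and 5.53 in parental, and VEGFB per NRP1 read was 0.695 in C5K13A, above both parental points.

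Among the receptors, NRP1 had the most reads. NRP1 (ENSG00000099250, chromosome 10, 33177492 to 33336262, minus strand) encodes neuropilin-1, a co-receptor for VEGF and class 3 semaphorins. In CPM, it had 47.8 and 45.0 in C4K13A and 36.9 in C5K13A, against 81.3 and 57.2 CPM in parental. All clone libraries lay under both parental ones, and C5K13A was the lowest, the reverse of the order of the clones in VEGFA and VEGFB. That difference between the clones missed the threshold (log2 fold change of C5K13A over C4K13A -0.32 ± 0.26, edgeR adjusted p = 0.940). The log2 fold change was -0.58 ± 0.21 for C4K13A over parental, -0.90 ± 0.27 for C5K13A over parental and -0.68 ± 0.20 over both clones, with edgeR adjusted p = 0.319, 0.539 and 0.280. Without parental replicate 1 the value over both clones was -0.40 (adjusted p = 0.924), and without parental replicate 2 C4K13A passed (-0.81, adjusted p = 0.0220), with 1 parental library and the spread taken from the C4K13A pair.

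NRP2 and FLT1 were at the edge of detection. NRP2 (chromosome 2, 205681990 to 205798133, plus strand), the neuropilin of lymphatic endothelium, had 11 and 6 counts in C4K13A and 20 in C5K13A, against 11 and 30 in parental. Those ranges overlapped, and the log2 fold change over both clones was -0.48 ± 0.77 (edgeR adjusted p = 0.857). FLT1 (chromosome 13, 28300344 to 28495145, minus strand), the receptor kinase VEGFR1 that binds VEGFA, VEGFB and PGF, had 0 and 0 counts in C4K13A and 4 in C5K13A, against 9 and 22 in parental. With a floor of 3 counts over the C4K13A libraries, the C4K13A level lay 8.72-fold under the observed parental one. The floor covers counting error in C4K13A only and the parental counts were taken as exact, so this ratio is not a lower bound. Against each parental library alone, that ratio was 4.70-fold for parental replicate 1 and 13.4-fold for parental replicate 2. The difference between C4K13A and parental missed the threshold (edgeR adjusted p = 0.235), and FLT1 had too few counts to enter the 2-group fit. Of the other receptor kinases, FLT4 had 1.92 and 2.13 CPM in C4K13A and 2.10 in C5K13A, against 2.31 and 1.04 CPM in parental, while KDR had 2 counts in 1 library and TEK 2 counts in another.

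ANGPT2 and ANGPTL4 were low, and each rested on a single library. ANGPT2 (ENSG00000091879, chromosome 8, 6499651 to 6563409, minus strand) encodes a context-dependent antagonist of ANGPT1. In CPM, ANGPT2 had 0.998 and 0.771 in C4K13A and 0.471 in C5K13A, against 5.48 and 0.590 CPM in parental. Parental replicate 1 was 9.28 times parental replicate 2, and the second parental library lay within the range of the clones. The log2 fold change over both clones was -2.02 ± 0.77 (edgeR adjusted p = 0.405), and it was 0.34 without parental replicate 1 and -2.86 without parental replicate 2. With parental replicate 2 left out, C4K13A passed (-2.62, edgeR adjusted p = 0.00979), against the 1 high parental library and with the spread taken from the C4K13A pair. Exons of ANGPT2 and of MCPH1 on the opposite strand share 78 bases, 1.15% of the merged ANGPT2 exons, and the strand setting of the counting is not given.

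ANGPTL4 was low in C5K13A. ANGPTL4 (ENSG00000167772, chromosome 19, 8363289 to 8374373, plus strand) encodes a secreted inhibitor of lipoprotein lipase that fasting, PPAR factors and hypoxia induce. In CPM, ANGPTL4 had 1.64 and 2.17 in C4K13A and 0.471 in C5K13A, against 1.65 and 2.10 CPM in parental. C4K13A and parental covered nearly the same range, and the single C5K13A library was lower than all of them, on 20 counts. The log2 fold change was -1.98 ± 0.54 for C5K13A over parental (edgeR adjusted p = 0.477), -2.0 ± 0.54 for C5K13A over C4K13A (0.502) and 0.02 ± 0.38 for C4K13A over parental (0.992).

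**Figure D3:**
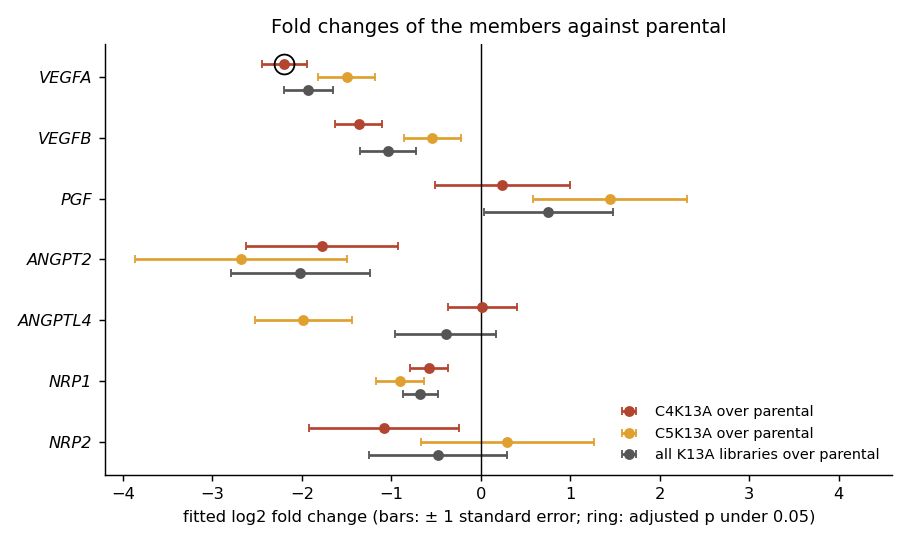
Fitted log2 fold changes over parental of the 7 members that entered all fits, for C4K13A, for C5K13A and for all K13A libraries. Bars are ± 1 standard error and the ring marks an adjusted p under 0.05, reached by VEGFA in C4K13A (-2.20). VEGFA, VEGFB, ANGPT2 and NRP1 had negative values in all 3 comparisons, while ANGPTL4 was at 0.02 in C4K13A and -1.98 in C5K13A.

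Counted over the members, the tests called few. In the comparison of all K13A libraries with parental, 7 members were tested, 6 had negative log2 fold changes with a median of -0.68, and edgeR called 0 of them, against 0.203% of all 20649 genes and a median over all genes of -0.00474. At an unadjusted p under 0.05 there were 4 members, all lower, against 6.68% of all genes. DESeq2 called 1 of the 7, where it called 555 of all 20649 genes. Limma-voom called 0, where it called 11 of all genes. In 3 of the 7 members the groups did not overlap and the clones were lower, a pattern that 14.9% of all genes showed. In C5K13A against parental, edgeR called 0 of 8 members, against 0.0484% of all genes in either direction. There 3 had an unadjusted p under 0.05, against 6.45% of all genes, DESeq2 called 1 and limma-voom 0. In C5K13A against C4K13A it called 0 of 8, against 0.066% of all genes, with 3 at an unadjusted p under 0.05, against 6.42% of all genes, and 0 called by DESeq2 or limma-voom. How many of all genes DESeq2 and limma-voom called in the comparisons of single clones is given at the end. The comparisons with parental share the parental libraries, so they are not independent of each other. FLT1 passed the filter of the 3-group fit through its parental counts, so its negative sign there says little.

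The expressed genes around VEGFA had smaller fold changes than VEGFA, and most were negative. Of 18 protein-coding genes with a mean of at least 1 CPM within 500 kb of VEGFA on either side, a window chosen after the values of the members were seen, the median log2 fold change over all K13A libraries was -0.15, and VEGFA was lower than all 18. Over both clones 12 were negative, where 50.6% of all genes were. In C4K13A 16 of the 18 were negative, with a median of -0.17, where 51.1% of all genes were negative. In C5K13A 11 were negative, with a median of -0.02, where 52.8% of all genes were. GTPBP2, a GTP-binding protein gene of ribosome rescue, was the lowest neighbour, with -1.59 over both clones (edgeR adjusted p = 0.215). It was the 1 neighbour called in C4K13A (-2.09, adjusted p = 0.0233), where 0.699% of all genes were. The 23 such neighbours of VEGFB had a median of -0.02 with 0 called. MACROD1 (-1.15) lay below VEGFB (-1.04) over both clones, and 3 neighbours lay below it in C5K13A. The 2 of NRP1, ITGB1 and CCDC7, were not called.

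Genes with the profile nearest to VEGFA were found among 10261 protein-coding genes with a mean of at least 5 CPM, by the root mean square difference of log2(CPM + 0.5) centred on each gene's mean over the 5 libraries. The nearest was MAP1B, a microtubule-associated protein gene, at a difference of 0.0701, where the median gene lay at 1.04. MAP1B had 46.9 and 42.9 CPM in C4K13A and 69.1 in C5K13A, against 230.5 and 151 CPM in parental, close to the VEGFA values. It was called over both clones (log2 fold change -1.85, edgeR adjusted p = 0.0456). The next were CDK18 (0.120), a cyclin-dependent kinase gene, MAT1A (0.167), an S-adenosylmethionine synthetase gene, DDIT3 (0.183), which encodes the stress factor CHOP, and NAT8L (0.199), which makes N-acetylaspartate. DDIT3 had 6.64 and 6.61 CPM in C4K13A and 12.4 in C5K13A, against 51.5 and 31.3 CPM in parental. VEGFB ranked 74th by this measure (0.466) and NRP1 464th (0.728). The measure rests on 5 libraries, and these genes were picked for likeness, so their fold changes are a description.

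**Figure D4:**
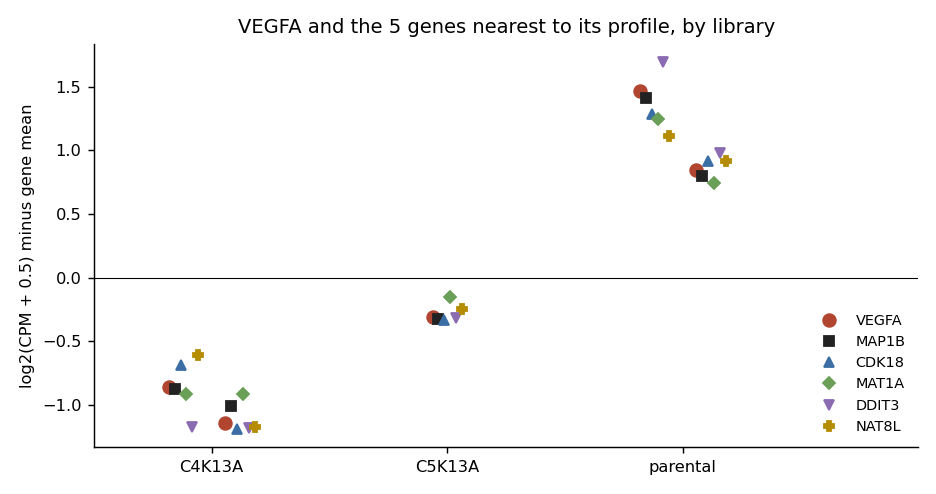
Centred log2(CPM + 0.5) of VEGFA and its 5 nearest genes in each library, for C4K13A (2 libraries), C5K13A (1) and parental (2), as differences from each gene's own mean (line at 0). All 6 genes were highest in the 2 parental libraries, lowest in C4K13A and between them in C5K13A.

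Pathway genes beyond the members mostly did not pass the test, in lists chosen with earlier results of these data known. Among 20 hypoxia-induced genes, 18 were tested over both clones and 14 had negative values, where 50.6% of all genes did. The median of the 18 was -0.29 and 0 were called, against 0.203% of all genes. The sign depended on the parental library in some of them, and LDHA and PFKFB4 were picked to show it. LDHA had 594 and 495 CPM in C4K13A and 471 in C5K13A, against 248 and 681 CPM in parental. PFKFB4 had 13.8 and 9.44 CPM in C4K13A and 14.2 in C5K13A, against 12.4 and 23.2 CPM in parental. STC2, a secreted stanniocalcin, had 68.5 and 53.3 CPM in C4K13A and 87.2 in C5K13A, against 223 and 180 CPM in parental, and it fell in C4K13A (-1.73 ± 0.21, edgeR adjusted p = 0.0159) as the 1 of 20 called there, where 0.699% of all genes were. That call ended with the filter at 5 CPM (0.0513). With single libraries left out, the log2 fold change of STC2 in C4K13A ran from -1.91 to -1.55. Over both clones STC2 had -1.53 ± 0.22 (edgeR adjusted p = 0.0522), and in C5K13A over parental -1.20 ± 0.27 (0.324), neither called. BNIP3L, a mitophagy receptor gene, averaged 44.0 ± 7.23 CPM in the clones and 88.9 ± 23.0 CPM in parental (-1.01 ± 0.21, adjusted p = 0.156). The genes that set hypoxia-inducible factor levels were split, with 5 of 10 negative, a median of -0.01 and 0 called. VHL, the ubiquitin ligase subunit that marks those factors for degradation, had -0.37 ± 0.15, and CITED2, which competes for their co-activators, 0.37 ± 0.20.

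Among 10 PPAR and lipolysis genes, 9 were tested and 0 called over both clones (median -0.06), against 0.203% of all genes. PPARG fell in C4K13A, where 0.699% of all genes were called. PPARG, the adipogenic nuclear receptor, had 1.88 and 2.22 CPM in C4K13A and 24.1 in C5K13A, against 8.07 and 18.4 CPM in parental. C5K13A stood above both parental libraries, so the clones lay on opposite sides of them. The C4K13A log2 fold change over parental was -2.70 ± 0.40 (edgeR adjusted p = 0.0296), and the call ended with limma-voom (0.0947) and with the filter at 5 CPM (0.0738). FABP5, a fatty acid binding protein gene, and PPARD, another PPAR receptor gene, had 1.70 ± 0.47 and 0.96 ± 0.38 over both clones, neither called.

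The remaining lists had 0 members called in any of the 4 comparisons. Of all genes, edgeR called 0.203% over both clones, 0.699% in C4K13A over parental, 0.0484% in C5K13A over parental and 0.066% between the clones. With at most 11 genes tested in a list, 0 called says little about these lists. Neuropilin partners, the class 3 semaphorins and plexins, had a median of -0.07 over both clones in 8 genes tested, with SEMA3G at -0.39 and PLXNA2 at -0.77. Genes of VEGF processing and mRNA control had a median of 0.17 in 11 tested. There SRPK1, a kinase of splicing factors that act on VEGFA, averaged 114 ± 9.32 CPM in the clones and 67.1 ± 16.1 CPM in parental (0.76 ± 0.19, edgeR adjusted p = 0.224). PCSK5, a proprotein convertase gene, was at the edge of detection, with 3 and 0 counts in C4K13A and 1 in C5K13A, against 21 and 19 in parental. It passed the filter only through its parental counts and was not called (edgeR adjusted p = 0.252). Other angiogenic factors had a median of -0.40 in 8 tested, with EFNA1 at -0.61 and CCN1 at 0.70, and angiogenesis inhibitors -0.37 in 8 tested, with VASH1 at -1.19 ± 0.36 and THBS1 at -1.06 ± 0.47. The angiopoietin-like genes ANGPTL6 and ANGPTL7, the 2 tested over both clones, had -0.54 and -0.91, and FLT4, the 1 tested among the other VEGF and TIE ligands and receptors, 0.28.

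**Figure D5:**
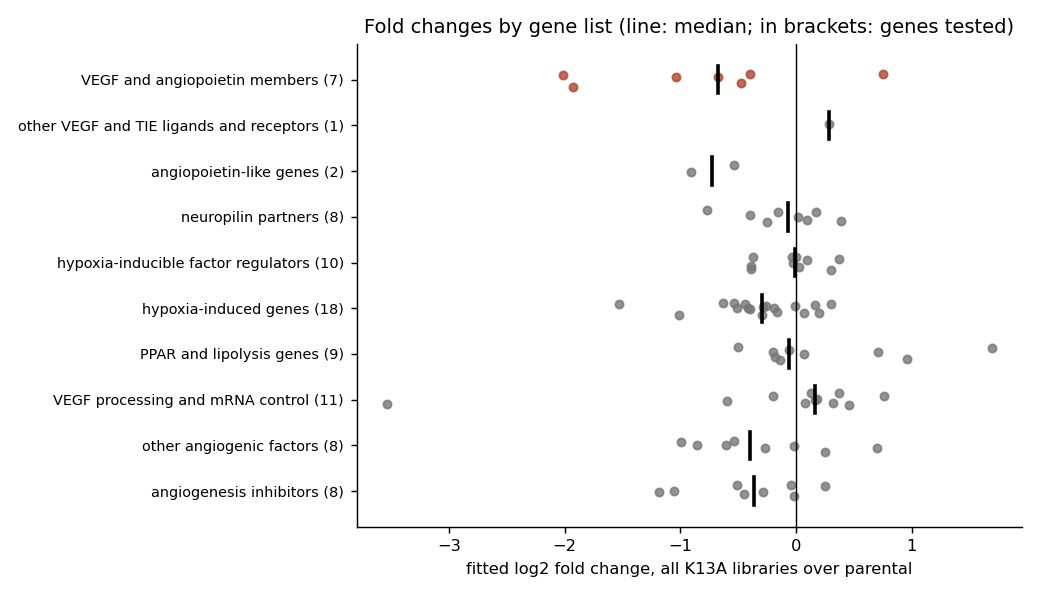
Fitted log2 fold change over parental, all K13A libraries, of each tested gene by list, with the median as a line and the number tested in brackets. The members (top row) had a median of -0.68 and hypoxia-induced genes -0.29, while hypoxia-inducible factor regulators centred on -0.01.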

How the data were processed

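Per the labels' protocols, column-purified, DNase-treated RNA of 5 libraries went through RiboErase depletion to HiSeq sequencing. The submitters' processing notes name bcl2fastq, STAR 2.5 and Subread featureCounts 1.4.6-p5. Build, annotation and strand setting were not given in the sources. The authors deposited whole-number read counts per gene, not normalized. Names, positions and lengths came by Ensembl ID from GENCODE v29 (GRCh38), which held 55297 of 58812 IDs. Groups and replicate numbers came from titles. Separate cultures are not stated, so the p-values reflect variation among these libraries alone, and it may be technical.

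Counts were tested with edgeR 4.0.16 in R 4.3.3 (filterByExpr, TMM, quasi-likelihood) and Benjamini-Hochberg adjustment over all genes tested, at 0.05. Both clones together against parental left 3 residual degrees of freedom. Contrasts of single clones shared 1 fit of 3 groups, which left 2, and there the spread of C5K13A, a lone library, is assumed to equal that of the other groups. The covariate for mitochondrial ribosomal RNA lowers these degrees of freedom. Standard errors are the log2 fold change over the root of F. The tests were checked on simulated counts. Alternatives were other scaling factors, no filter or one at 5 CPM, DESeq2 1.42.0, limma-voom (limma 3.58.1), dropping ribosomal, small and mitochondrial RNA genes, a covariate for mitochondrial ribosomal RNA, a replicate block, summed C4K13A libraries and leaving out each library.

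The members and lists were chosen with earlier results of these data known. Named genes are the 10 members, up to 4 called genes per list and comparison (with none called, the 2 with the smallest p over all K13A libraries), and the 5 genes nearest to VEGFA in profile. Named outside this rule were HOXB13, cell type markers, genes near or overlapping a member, and VEGFD, KDR and TEK for their counts. LDHA and PFKFB4 were also named outside it, picked as examples of a sign that depended on the parental library.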

Additional observations from a re-analysis of the deposited data

How the results depend on the processing

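The fold change of VEGFA kept its direction under all alternatives run. In C4K13A over parental it lost its call with the filter at 5 CPM (-2.23, adjusted p = 0.0513). Over all K13A libraries it gained one with no filter (-1.93), with DESeq2 (-1.92) and in the 3-group fit (-1.85). It ran from -2.20 to -1.58 when single libraries were left out, passing only without C5K13A, which leaves C4K13A against parental. In C5K13A over parental it gained a call with no filter (-1.50) and DESeq2 (-1.49), and ran from -1.78 to -1.16 when single libraries were left out. Leaving out a parental library there sets 1 library against 1, with the spread from the C4K13A pair, so no call is read from it. In C4K13A over parental, leaving out a C4K13A or parental library likewise leaves 1 library in that group. The same limit holds for the ranges of called members and genes in the comparisons of single clones below.

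Called members over all K13A libraries, 0 in the reported fit, were 4 with no filter and 1 with DESeq2 or in the 3-group fit. They were 0 without either C4K13A library, and 1 without C5K13A, which leaves C4K13A against parental. For C4K13A, 1 in the reported fit, they were 4 with no filter, 0 with the filter at 5 CPM, 2 with DESeq2 or the covariate, and 1 to 4 without single libraries. For C5K13A over parental, 0 in the reported fit, they were 3 with no filter and 1 with DESeq2, and 0 to 3 without single libraries.

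Counts of called genes moved more, and the counts of called members above are to be read against them. Over all K13A libraries, 42 became 1167 with no filter, 2 with the filter at 5 CPM, 555 with DESeq2, 11 with limma-voom or summed C4K13A libraries, 71 with the covariate, 105 in the 3-group fit and 0 to 130 without single libraries. For C4K13A, 159 became 1346 with no filter, 32 with the filter, 745 with DESeq2, 86 with limma-voom, 777 with the covariate and 130 to 1667 without single libraries. For C5K13A over parental, 11 became 578 with no filter, 0 with the filter or limma-voom, 235 with DESeq2, 105 with the covariate, 7 without mitochondrial, small and ribosomal RNA genes and 41 to 668 without single libraries. For C5K13A over C4K13A, 15 became 423 with no filter, 0 with the filter or limma-voom, 182 with DESeq2, 92 with the covariate, 7 with upper-quartile factors and 51 to 155 without single libraries. The cause was not tested.

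Signs turned for members near 0 or resting on 1 library. Without single libraries, ANGPT2 ran from -2.86 to 0.34 over all K13A libraries and from -2.62 to 0.58 in C4K13A, NRP2 from -1.09 to 0.57 over all K13A libraries and from -0.32 to 1.34 in C5K13A, PGF from -0.37 to 0.86 in C4K13A, FLT4 from -0.17 to 0.97 and ANGPTL6 from -1.02 to 0.21 over all K13A libraries. ANGPTL4 ran from -0.81 to 0.018 over all K13A libraries and from -0.19 to 0.21 in C4K13A, where it was -0.012 with upper-quartile factors.

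Same-numbered C4K13A and parental libraries shared only a number in the labels, though their deviations correlated across genes at 0.28. For C4K13A against parental the block and the ribosomal RNA covariate are the same split of libraries, so they are not separate checks. With the replicate block, C4K13A over parental had 885 called genes and 2 called members, VEGFA (-2.17, adjusted p = 2.91e-05) and VEGFB (-1.32, 0.00510). Depth limits PGF, NRP2 and FLT1, each with at most 30 counts in a library.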
